A study of Lactuca sativa with 32 samples.

Results

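In leaves of red oak leaf lettuce (Lactuca sativa), 77 genes had a higher level in each of 16 plants grown without adjustment of the light intensity than in any of 16 plants grown with it. They were selected on that difference itself. A gene was taken when its mean level over all 32 plants was at least 1 CPM (its count divided by the library total, times 1e6) and its lowest level in the unadjusted plants exceeded its highest level in the adjusted plants. Of 20330 genes at that level, 77 (0.379%) met the rule, and all of them were kept, since the limit of 150 genes was not reached. The difference between the experiments is therefore given as a description, with no test. Tests were made only between the 4 covers within an experiment, and of whether the difference between the experiments varied with the cover.

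The study sequenced poly-A RNA from leaf tissue of 32 plants, 4 in each of 8 groups. Light from ceramic metal halide and incandescent sources reached the plants through clear glass (Control) or through an organic photovoltaic filter carrying the blend FTAZ:IT-M, FTAZ:PCBM or PTB7-Th:IEICO-4F. The 4 covers were used in the PAR Controlled experiment (PC), in which the light intensity was adjusted, and in the Height Controlled experiment (HC), in which it was not. PAR is photosynthetically active radiation, the light that drives photosynthesis. The 8 groups were thus PC Control, PC FTAZ:IT-M, PC FTAZ:PCBM, PC PTB7-Th:IEICO-4F and the same covers in HC. Boxes held 16 plants, with 2 in a pot up to a harvest at 3 weeks, and 8 were kept to 5 weeks. The labels do not say from which of these harvests the leaf tissue came, so plant age at sampling is not known. They also do not give the light intensity behind each cover. Whatever else differed between the experiments cannot be told apart from the adjustment of the light.

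An organic photovoltaic filter is a semi-transparent solar cell layer that absorbs part of the spectrum and passes the rest. Plants read both the amount and the colour of light, through photoreceptors such as phytochromes and cryptochromes and through the state of the chloroplast, and adjust growth, photosynthesis and pigments accordingly. Red-leaf lettuces are known for leaf anthocyanins, whose synthesis depends on light. The files and the gene table used with them give the members as numbered loci without product names, so no role is given to any of them, and the leaf identity of the tissue was taken from the labels without a check on marker genes. Of the 77 members, 75 are protein coding and 2, LOC111906673 and LOC111916161, are long non-coding RNAs in the RefSeq gene table of Lsat_Salinas_v11.

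Library totals ranged from 47289413 to 48764530 counts, so 3 counts, taken as the smallest level that could be shown, corresponded to 0.0615 to 0.0634 CPM. The totals overlapped between the experiments. Such limits cover counting error only. All 77 members were among the 24483 genes tested. In bulk leaf, fewer cells of a type and less RNA per cell cannot be told apart. Library numbers in the file headers run in blocks by group. Only PC FTAZ:PCBM 2 (26b) and PC FTAZ:PCBM 3 (27b) have a number with a suffix, whose meaning is not known. The part of these numbers in the results was not tested.

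The members with the widest difference between the experiments were LOC111886526 and LOC111898758. LOC111886526 had 5.53, 13.1 and 20.9 CPM in PC (lowest, median and highest of 16 plants) against 22.4, 77.1 and 153 CPM in HC. Its difference of mean log2(CPM + 0.1), HC minus PC, was 2.45. The lowest HC plant, HC PTB7-Th:IEICO-4F 3, thus stood just above the highest PC plant, PC FTAZ:IT-M 2. The gene lies at 3692351 to 3694886 on the plus strand of scaffold NW_019672650.1 (Lsat_Salinas_v7). LOC111898758 was a low-level gene, with 0, 0.415 and 0.873 CPM in PC and 0.908, 3.04 and 5.48 CPM in HC. One PC plant, PC PTB7-Th:IEICO-4F 4, had a count of 0 for it, below the limit of 3 counts. Its difference was also 2.45 on the log2(CPM + 0.1) scale, which understates changes at so low a level.

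LOC111894582 followed with a difference of 2.08 and medians of 8.15 CPM in PC and 36.7 CPM in HC. LOC111891696 (1.94), LOC111891195 (1.91) and LOC111908128 (1.87) came next, at medians of 2.29, 2.95 and 0.598 CPM in PC and 8.82, 10.9 and 2.68 CPM in HC. The rest of the 10 widest were LOC111894827 (1.72), LOC111900382 (1.68), LOC111915917 (1.67) and LOC111921736 (1.65). Among these, LOC111900382 was the most abundant, at 46.6 CPM (median in PC) and 130 CPM (median in HC). The PC and HC ranges came close in all 10. The lowest HC plant had at most 1.168 times the CPM of the highest PC plant, in LOC111894827.

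Over the 77 members the HC minus PC difference ran from 0.29 to 2.45 with a median of 0.81. The median over all 20330 genes was −0.043. A difference of at least 1 was found in 26 members and of at least 2 in 3. The rule chose separation and not size: 368 genes of the 20330 differed by 1 or more, and 15 differed by more than the widest member, up to 3.67. The separation was narrow. The lowest HC plant had less than 1.1 times the CPM of the highest PC plant in 66 members, and in none did it reach 1.5 times.

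**Figure D1:**
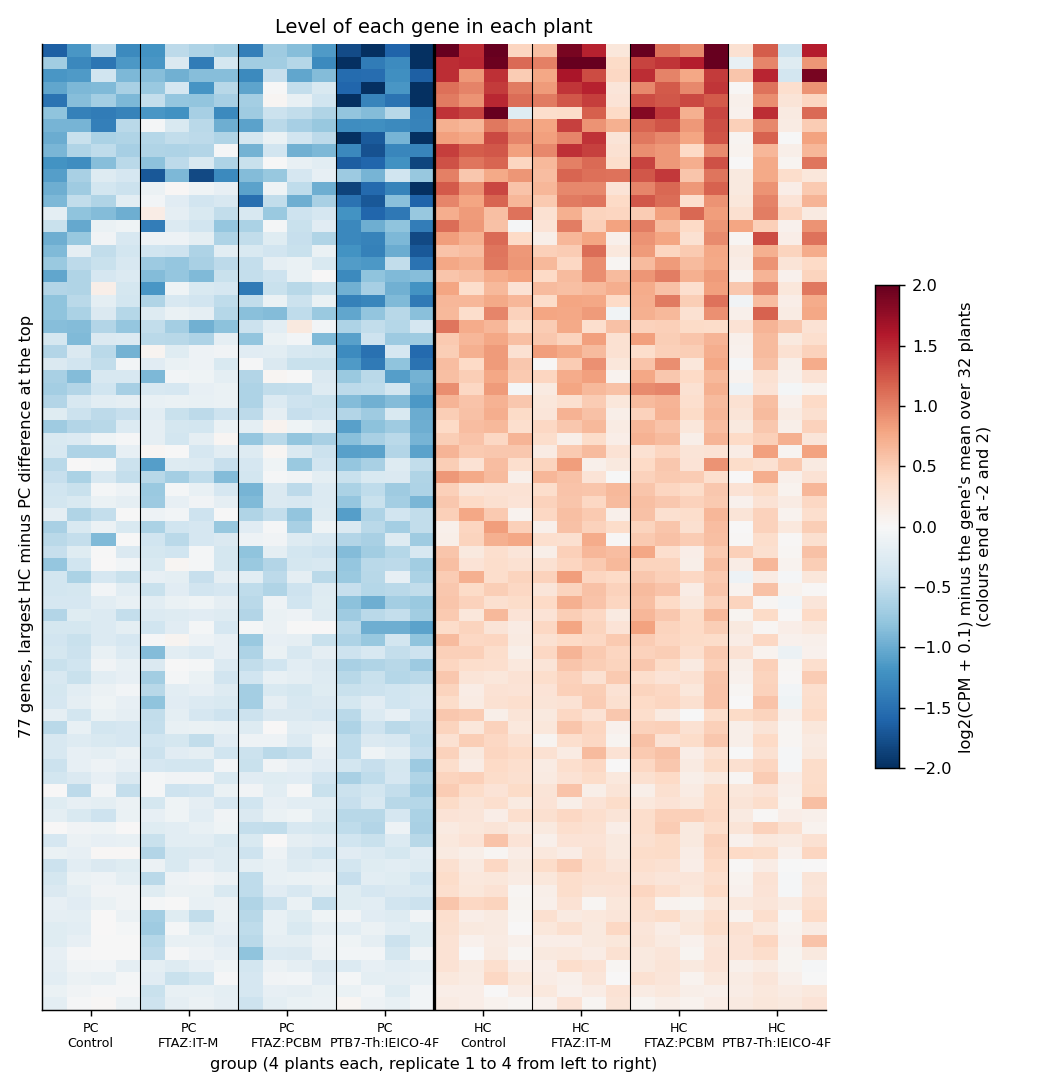
Level of the 77 genes (rows, ordered by the HC minus PC difference) in 32 plants (columns, 4 per group), as log2(CPM + 0.1) minus the mean of the gene over all plants. Most PC cells are blue and most HC cells red, with some cells near 0 on the other side of their gene's mean, and with the darkest blue in the upper rows of PC PTB7-Th:IEICO-4F and paler red in HC PTB7-Th:IEICO-4F 3, the lowest HC plant in 32 genes.

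The most abundant member, LOC111892466, had 1604, 2084 and 2633 CPM in PC and 2714, 3413 and 3885 CPM in HC (lowest, median and highest). Its mean of 2746 CPM over 32 plants was far above that of the next members, LOC111891399 (374 CPM), LOC111902919 (263 CPM), LOC111899110 (202 CPM) and LOC111909172 (162 CPM). These comparisons are per library, and not per transcript length. All 5 of these abundant genes had moderate HC minus PC differences, 0.70, 0.80, 0.69, 0.84 and 0.78 on the log2 scale in the same order. The mean level was at least 10 CPM in 50 members and at least 100 CPM in 10. The members together took 0.361% to 0.527% of the counts of a PC plant and 0.581% to 0.807% of those of an HC plant.

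At the edge of the rule, LOC111896117 and LOC111921209 were just inside and LOC111892215 and LOC111890457 just outside. LOC111896117 had 24.8 CPM both in its lowest HC plant and in its highest PC plant, a ratio of 1.000 after rounding, and LOC111921209 had 23.7 and 23.6 CPM. Of the genes outside, LOC111892215 had 84.1 CPM in each of those plants and LOC111890457 had 245 CPM, both with a ratio of 0.999. LOC111890457 differed by 0.86 between the experiments, more than the median member, and was kept out by the overlap of PC FTAZ:PCBM 2 and HC PTB7-Th:IEICO-4F 3. Without either of these plants it would have passed.

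Membership rested on a few plants. HC PTB7-Th:IEICO-4F held the lowest HC plant of 60 of the 77 members, of which replicate 3 accounted for 32 and replicate 1 for 20. The highest PC plant was PC FTAZ:PCBM 2 in 15 members, PC Control 3 in 14 and PC FTAZ:IT-M 2 in 11. With HC PTB7-Th:IEICO-4F 3 left out, 185 genes passed the rule in place of 77. Without PC FTAZ:PCBM 2 there were 121. Leaving out other plants gave 77 to 105 genes.

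The members were scattered over the genome. They lay on 74 scaffolds of Lsat_Salinas_v7, and only 3 pairs shared a scaffold. The closest pair was LOC111894582 (418849 to 421881, minus strand) and LOC111894590 on NW_019682711.1, with 14802 bp and 1 gene between them. The table of Lsat_Salinas_v11 places no gene between them. The median exonic length was 1436 bp (range 555 to 3106) against 1638 bp over all genes of at least 1 CPM. Both sets had a median of 5 exon blocks, and 10.4% of the members had a single block against 11.4% of all genes. The median of the mean level was 17.9 CPM in the members and 17.6 CPM overall. Of the members, 7 overlap another annotated gene, which makes their values uncertain. LOC111915136 and LOC111903583 do so on the same strand. The others do so on the opposite strand, and the counting did not use a stated strand setting. LOC111887417 (65999 to 68555) is among the latter, with LOC111887418 (64374 to 66074, mean 23.1 CPM) on the opposite strand.

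Within PC, the plants under PTB7-Th:IEICO-4F had the lowest levels of these genes. For each plant, the median over the 77 members of the deviation from each gene's mean was taken on the log2(CPM + 0.1) scale. It was −0.62 ± 0.08 in PC PTB7-Th:IEICO-4F, against −0.32 ± 0.09 in PC Control, −0.31 ± 0.08 in PC FTAZ:IT-M and −0.32 ± 0.13 in PC FTAZ:PCBM (SD, n = 4 each). The 4 PC PTB7-Th:IEICO-4F plants lay between −0.71 and −0.54, below every other PC plant (−0.50 to −0.19). In HC the values were 0.27 ± 0.18 under PTB7-Th:IEICO-4F, 0.48 ± 0.11 under FTAZ:PCBM, 0.41 ± 0.12 under FTAZ:IT-M and 0.45 ± 0.09 under glass (SD, n = 4 each). The 4 HC PTB7-Th:IEICO-4F plants had 0.15, 0.46, 0.09 and 0.37. Replicates 2 and 4 were inside the range of the other HC plants, and replicates 1 and 3 were below all of them.

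**Figure D2:**
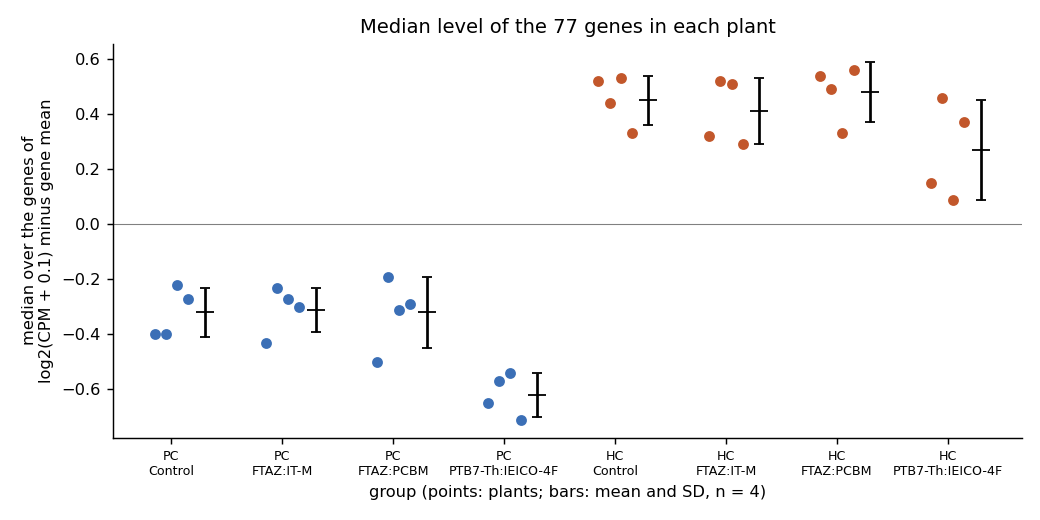
Median over the 77 genes of log2(CPM + 0.1) minus the gene's mean, for each plant (points) with the group mean and SD (bars, n = 4). The plants of PC PTB7-Th:IEICO-4F sit between −0.71 and −0.54, under the other 12 PC plants, and those of HC PTB7-Th:IEICO-4F spread from 0.09 to 0.46.

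Gene by gene, PTB7-Th:IEICO-4F was the lowest cover in most members, though not in all. PC PTB7-Th:IEICO-4F had the lowest mean of the 4 PC groups in 57 of 77 members (74%), against 19.3% of all genes of at least 1 CPM, and the highest mean in 1 member. The highest mean was spread evenly over the other covers, with 25 members in PC Control, 26 in PC FTAZ:IT-M and 25 in PC FTAZ:PCBM. In HC, PTB7-Th:IEICO-4F had the lowest mean in 53 members (68.8%, against 38.5% of all genes) and FTAZ:PCBM the highest in 41 (53.2%, against 25.3%). The choice of members bears on these counts. A gene whose level rises far in any PC group, or falls far in any HC group, overlaps the other experiment and drops out, whereas falls in PC and rises in HC are not limited.

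Each filter was set against the control of its own experiment with the quasi-likelihood test of edgeR, and p-values were adjusted by Benjamini-Hochberg over the 24483 genes tested. A gene was called at an adjusted p under 0.05. The 3 comparisons within an experiment share that experiment's control plants. The labels do not say which box each plant came from, so the plants of a group may have shared a box. The p-values rest on the spread between plants. A part of the box in the differences between covers was not tested.

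Under PTB7-Th:IEICO-4F in PC, 15 members fell and none rose. These were 19.5% of the members, against 2.46% of all tested genes called lower and 0.886% called higher. The log2 fold change was below 0 in 74 of 77 members, with a median of −0.34 (all genes 0.003). An unadjusted p under 0.05 was found in 44 members (57.1%), against 18.1% of all genes. The rule removes genes that rise far in any PC group and does not limit falls, so the lack of rises is partly fixed by the choice of members, and the shares of members and of all genes are not compared as a test. The number called depended on single plants. It was 6 without PC PTB7-Th:IEICO-4F 4, 9 without PC Control 3 or PC Control 4, 20 without PC Control 1, and 24 with DESeq2's Wald test. The median changed less, from −0.38 to −0.28 over the 8 fits that each left out 1 plant.

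The largest of these falls was that of LOC111914743. It had 3.43, 4.14, 5.29 and 5.06 CPM in PC Control and 1.84, 2.28, 2.67 and 1.03 CPM in PC PTB7-Th:IEICO-4F. The groups did not overlap. The change on the log2 scale was −1.25 (SE 0.25, edgeR adjusted p = 0.0051). In HC the gene had 16.3, 13.1, 17.5 and 10.3 CPM in Control and 7.88, 12.9, 7.56 and 9.89 CPM in PTB7-Th:IEICO-4F. These ranges overlapped, and the log2 fold change of −0.52 (SE 0.23) had an adjusted p of 0.214 in edgeR. LOC111914743 lies at 5375046 to 5377406 on the minus strand of NW_019676762.1.

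LOC111890204 had the lowest adjusted p of the members in this comparison (named after its values were seen). Its 4 PC Control plants had 16.3, 19.6, 21.2 and 21.7 CPM and its 4 PC PTB7-Th:IEICO-4F plants 13.4, 12.6, 13.4 and 11.1 CPM. All 4 of the latter were lower than every control plant. In log2 terms the fold change was −0.70 (SE 0.12, edgeR adjusted p = 0.000985). In PC FTAZ:IT-M the gene was nearly constant at 22.2, 22.4, 22.3 and 22.4 CPM.

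LOC111900382, among the 10 widest HC minus PC differences, had 35, 51.5, 44.9 and 46.2 CPM in PC Control and 16.6, 21.7, 36.7 and 11.7 CPM in PC PTB7-Th:IEICO-4F. The third plant under the filter reached into the control range. The fitted log2 fold change was −1.09 (SE 0.27, edgeR adjusted p = 0.0225), and the call was lost in 6 of 8 fits without 1 plant, up to an adjusted p of 0.122 without PC PTB7-Th:IEICO-4F 4. LOC111891195 (−0.95) and LOC111915917 (−0.83) were also called, with edgeR adjusted p-values of 0.0364 and 0.0419. The call of LOC111891195 was lost in 5 of 8 fits without 1 plant, up to an adjusted p of 0.163 without PC PTB7-Th:IEICO-4F 4. That of LOC111915917 was lost in 7 of 8, up to 0.133 without PC PTB7-Th:IEICO-4F 2. The smallest of the 15 falls was that of LOC111891112, by 0.31 on the log2 scale (SE 0.07, edgeR adjusted p = 0.0107).

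The widest member, LOC111886526, was not called here. Its 9.63, 13.3, 20.9 and 12.4 CPM in PC Control stood above the 8.6, 6.87, 9.85 and 5.53 CPM in PC PTB7-Th:IEICO-4F except where 9.85 passed 9.63. The change on the log2 scale was −0.93 with an edgeR adjusted p of 0.253. The most abundant member, LOC111892466, had 1952, 2011, 2523 and 2379 CPM in PC Control and 1693, 1740, 1803 and 1604 CPM under the filter. The ranges did not overlap, yet the log2 fold change of −0.43 had an adjusted p of 0.0589 in edgeR. LOC111908128 ran the other way, at 0.35, with an edgeR adjusted p of 0.714.

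**Figure D3:**
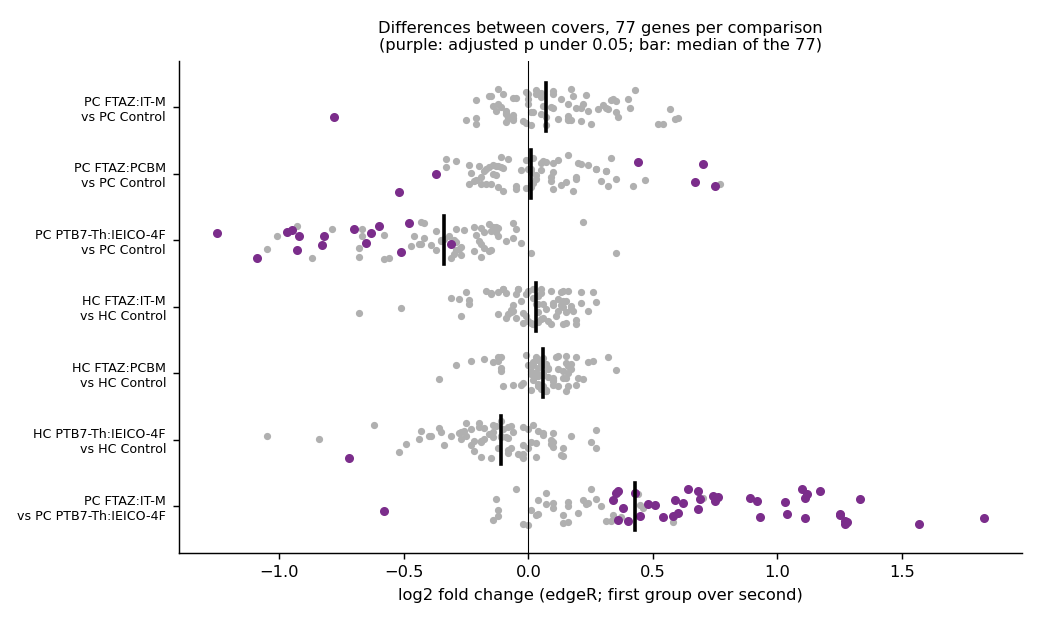
Log2 fold changes of the 77 genes (points) in 7 comparisons of covers within an experiment, with genes at an edgeR adjusted p under 0.05 in purple and the median as a bar. The medians are −0.34 for PTB7-Th:IEICO-4F against Control in PC, 0.43 for FTAZ:IT-M against PTB7-Th:IEICO-4F in PC, and between −0.11 and 0.07 in the other 5.

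Few members were called under FTAZ:IT-M in PC. The median log2 fold change was 0.07 (all genes 0.001), 49 members were above 0 and 28 below. No member rose and 1 fell, beside 4.03% of all genes called higher and 3.23% called lower. The rule limits rises in PC, so the lack of rises is partly fixed by the choice of members. DESeq2's Wald test called 3 members, and edgeR called 4 with PC FTAZ:IT-M 4 left out. The member that fell, LOC111900008, had 8.42, 11.6, 15.3 and 14.4 CPM in PC Control and 5.56, 9.73, 5.14 and 7.53 CPM in PC FTAZ:IT-M. The groups overlapped through PC FTAZ:IT-M 2 and PC Control 1. The log2 fold change was −0.78 (SE 0.23, edgeR adjusted p = 0.0331). The call was lost in 5 of the 8 fits that each left out 1 plant, with the highest adjusted p, 0.122, without PC FTAZ:IT-M 3. LOC111900008 is a short locus, with 649 bp of exon, at 167445 to 168093 on the minus strand of NW_019673370.1.

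Under FTAZ:PCBM in PC, 4 members were called higher and 2 lower. These were 5.19% and 2.6% of the members, beside 9.31% and 6.4% of all genes. The rule removes genes that rise far in any PC group, so these shares are not compared as a test. Leaving out PC Control 1, PC Control 2 or PC FTAZ:PCBM 2 left 3 called. The median log2 fold change was 0.01. The members that rose were LOC111906571, LOC111921736, LOC111891195 and LOC111921939, and those that fell were LOC111906673 and LOC111887417.

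LOC111906571 had 20.3, 20, 24.5 and 21.5 CPM in PC Control and 27.1, 31.6, 42 and 35.5 CPM in PC FTAZ:PCBM. Every plant under the filter exceeded every control plant. The fitted log2 fold change was 0.67 (SE 0.14, edgeR adjusted p = 0.00208), and the call held in all 8 fits without 1 plant. The gene lies at 862011 to 866027 on the minus strand of NW_019674624.1.

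LOC111921736 had 12.4, 12, 15.7 and 19.5 CPM in PC Control and 20.9, 28.3, 25.8 and 24.5 CPM in PC FTAZ:PCBM, again without overlap. Its log2 fold change was 0.75 (SE 0.24, edgeR adjusted p = 0.0339), and the call was lost in 5 of 8 fits without 1 plant, with an adjusted p of 0.102 without PC Control 2. LOC111891195 rose by 0.70 (SE 0.24, edgeR adjusted p = 0.0461, and 0.143 without PC Control 1) and LOC111921939 by 0.44 (SE 0.13, adjusted p = 0.0225, and 0.0722 without PC Control 1). LOC111891195 was thus called in both directions in PC, higher under FTAZ:PCBM and lower under PTB7-Th:IEICO-4F.

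The long non-coding RNA LOC111906673 had 3.72, 3.77, 4.31 and 4.54 CPM in PC Control and 2.66, 3.12, 2.62 and 2.9 CPM in PC FTAZ:PCBM. The groups did not overlap. In log2 terms the fold change was −0.52 (SE 0.13, edgeR adjusted p = 0.00609). Under PTB7-Th:IEICO-4F in PC it had 2.54, 2.9, 3.13 and 2.38 CPM and a log2 fold change of −0.63 (SE 0.13, edgeR adjusted p = 0.00528). In PC FTAZ:IT-M it had 4.03, 3.54, 4.06 and 4.75 CPM, within or near the control range. Both calls use the same control plants.

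**Figure D4:**
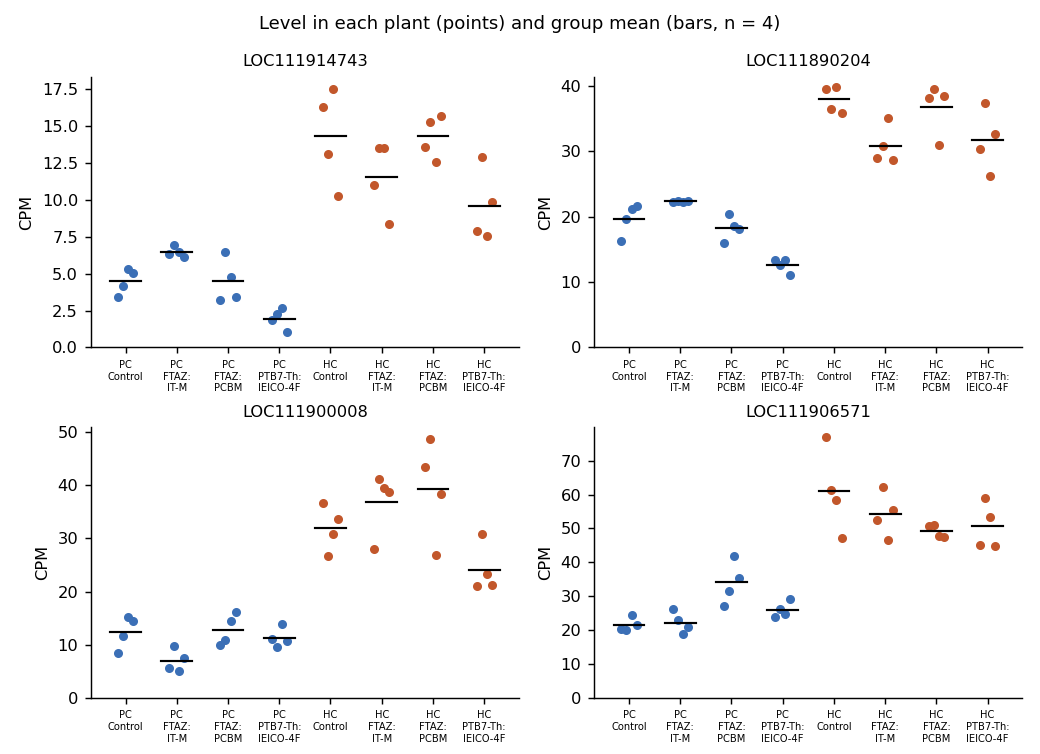
CPM of 4 genes in each plant (points; blue PC, orange HC) with group means (bars, n = 4), on axes that start at 0. LOC111914743 and LOC111890204 are lowest in PC PTB7-Th:IEICO-4F, LOC111900008 is lowest in PC FTAZ:IT-M, and LOC111906571 is highest among PC groups in PC FTAZ:PCBM, with PC group means from 21.6 to 34 CPM.

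The contrast of most called members in PC set FTAZ:IT-M directly against PTB7-Th:IEICO-4F. There 40 members were higher in FTAZ:IT-M and 1 was lower, that is 51.9% and 1.3% of the members, against 17.3% and 14.8% of all tested genes. The fitted log2 fold change was above 0 in 69 of 77 members with a median of 0.43 (all genes −0.006). Leaving out single plants gave 32 to 43 called members. Because it uses the same PC PTB7-Th:IEICO-4F plants, this comparison is not independent of the one against the control, and the limit that the rule puts on rises in PC holds here too.

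LOC111914743 had the largest rise in this comparison. Its 4 PC FTAZ:IT-M plants had 6.33, 6.95, 6.44 and 6.11 CPM, all above the 1.03 to 2.67 CPM of PC PTB7-Th:IEICO-4F. In log2 terms the fold change was 1.83 (SE 0.25, edgeR adjusted p = 6.48e-06). LOC111890204 followed the same order at 0.92 (SE 0.12, edgeR adjusted p = 1.71e-06). LOC111900008 was the 1 member lower in FTAZ:IT-M, with 5.14 to 9.73 CPM against 11, 9.5, 13.8 and 10.7 CPM under PTB7-Th:IEICO-4F. Its log2 fold change was −0.58 (SE 0.23, edgeR adjusted p = 0.0481), and the call was lost in 6 of 8 fits without 1 plant, up to an adjusted p of 0.153 without PC FTAZ:IT-M 3.

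In HC few members were called between a filter and Control. Few of all genes were called with the FTAZ blends, while 2.26% were called higher and 1.57% lower with PTB7-Th:IEICO-4F. The rule removes genes that fall far in any HC group, so falls of members were limited by their choice. No member was called in FTAZ:IT-M or FTAZ:PCBM against HC Control, where 0% and 0.0327% of all genes were called. By edgeR, 2 members (2.6%) had an unadjusted p under 0.05 with FTAZ:IT-M and 4 (5.19%) with FTAZ:PCBM, against 7.14% and 7.05% of all genes, and DESeq2's Wald test called none in either. The medians were 0.03 and 0.06. With FTAZ:PCBM 61 members were above 0 and 16 below, at fold changes from −0.36 to 0.35.

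Under PTB7-Th:IEICO-4F in HC, 57 members were below 0 and 20 above, with a median log2 fold change of −0.11 (all genes 0.006). One member fell and none rose, a share of 1.3% beside 1.57% of all genes called lower and 2.26% called higher. The member that fell was LOC111915917, at 2582385 to 2586413 on the plus strand of NW_019677035.1. It had 10.4, 9.16, 9.42 and 6.95 CPM in HC Control and 4.09, 6.29, 4.25 and 6.23 CPM in HC PTB7-Th:IEICO-4F. The groups did not overlap. The log2 fold change was −0.72 (SE 0.21, edgeR adjusted p = 0.049), and 5 of 8 fits without 1 plant lost the call, up to 0.157 without HC PTB7-Th:IEICO-4F 3. In PC, where its call under this blend held in 1 of 8 fits without 1 plant, it had 2.03, 2.54, 2.71 and 2.43 CPM in Control and 1.55, 1.1, 1.52 and 1.5 CPM under the filter.

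LOC111898758 had the lowest fold change of the members in HC PTB7-Th:IEICO-4F, −1.05, and was not called. Its plants had 3.23, 3.28, 4.53 and 2.52 CPM in HC Control and 0.975, 2.24, 0.908 and 2.1 CPM under the filter, all below the control plants. LOC111886526 had 153, 84.6, 136 and 40.4 CPM in HC Control and 37.2, 69.7, 22.4 and 89 CPM under the filter, a spread of several fold within either group. So wide a spread was not typical of the members, whose median edgeR dispersion was 0.0188 against 0.0152 over all tested genes.

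Whether the HC minus PC difference itself varied with the cover was tested as an interaction, filter against Control, with all 3 interactions sharing both control groups. The difference had a median over the members of 0.77 under clear glass. It was 0.93 under PTB7-Th:IEICO-4F, 0.80 under FTAZ:PCBM and 0.72 under FTAZ:IT-M. The medians over all genes were −0.01, −0.12, −0.03 and −0.01 in the same order. PTB7-Th:IEICO-4F gave the widest difference in 35 members, and FTAZ:IT-M the narrowest in 31.

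For PTB7-Th:IEICO-4F the interaction was above 0 in 66 of 77 members with a median of 0.24 (all genes 0.018). An unadjusted p under 0.05 was found in 24 members (31.2%), against 15.9% of all genes. Members were chosen on the HC minus PC separation in these same plants, which limits rises in PC and falls in HC, so these tallies are a description. After adjustment 2 members were called, both wider (2.6% of members, with 1.32% of all genes called wider and 0.674% narrower). Leaving out PC PTB7-Th:IEICO-4F 4 left 0 called and leaving out HC PTB7-Th:IEICO-4F 3 gave 4. For FTAZ:PCBM 2 members were called wider and 1 narrower, beside 1.38% and 3.23% of all genes. Without PC FTAZ:PCBM 1 or HC FTAZ:PCBM 2, 1 was called. For FTAZ:IT-M none was called, against 2.65% of all genes in either direction. There 6 members (7.79%) had an unadjusted p under 0.05 in edgeR, against 19.6% of all genes, and DESeq2's Wald test called 1, while edgeR without PC FTAZ:IT-M 4 called 2. The lowest edgeR adjusted p was 0.0609, for LOC111900008, whose difference was wider by 1.05 (SE 0.31) under FTAZ:IT-M.

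LOC111906571 had the narrower difference under FTAZ:PCBM. Its HC minus PC difference was 1.48 under Control and 0.55 under FTAZ:PCBM. In HC it had 76.9, 61.2, 58.5 and 47.2 CPM in Control and 50.7, 51.1, 47.7 and 47.5 CPM in FTAZ:PCBM. The HC groups overlapped, whereas the PC groups given above did not. The interaction was −0.96 (SE 0.20, edgeR adjusted p = 0.0107), and it stayed below 0.05 in all 16 fits without 1 plant, at 0.026 or less. With the gene length offset it was −0.78, with an adjusted p of 0.0882.

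LOC111887417 had a wider difference under both FTAZ:PCBM and PTB7-Th:IEICO-4F. In PC it had 10, 9.45, 9.33 and 10 CPM in Control, 7.06, 7.01, 7.88 and 7.72 CPM in FTAZ:PCBM, and 6.93, 6.56, 9.21 and 6.27 CPM in PTB7-Th:IEICO-4F. In HC it had 11.2, 11.6, 11.9 and 11.2 CPM in Control, 12.7, 14.2, 11.3 and 12.7 CPM in FTAZ:PCBM, and 11.9, 13.6, 12.4 and 10.4 CPM in PTB7-Th:IEICO-4F. Both filters lay below the control in PC and overlapped it in HC. The interactions were 0.54 (SE 0.14, edgeR adjusted p = 0.0226) and 0.60 (SE 0.14, adjusted p = 0.0173). The first was lost in 3 of 16 fits without 1 plant, up to 0.062 without HC FTAZ:PCBM 2, and had an adjusted p of 0.129 with the gene length offset. The second was lost in 1 of 16, at 0.0559 without PC PTB7-Th:IEICO-4F 4, and had 0.0616 with only the groups compared. This locus, at 65999 to 68555 on the minus strand of NW_019680953.1, overlaps a gene on the opposite strand over a short stretch. Its counts are therefore uncertain.

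LOC111917635 was the other member called in both interactions, and was named after its values were seen. The HC minus PC difference was 0.18 under Control, 0.63 under FTAZ:PCBM and 0.59 under PTB7-Th:IEICO-4F. The interactions were 0.47 (SE 0.14, edgeR adjusted p = 0.0454) and 0.53 (SE 0.14, adjusted p = 0.0353). Neither was firm. Without 1 plant the first was lost in 12 of 16 fits and the second in 10 of 16, up to adjusted p-values of 0.112 without PC Control 3 and 0.1 without HC Control 3. The first had 0.368 with the gene length offset. In PC it had 20.1, 19.7, 22.4 and 22.4 CPM in Control and 18.8, 18.2, 17.3 and 18.7 CPM under PTB7-Th:IEICO-4F, which was lower in every plant.

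**Figure D5:**
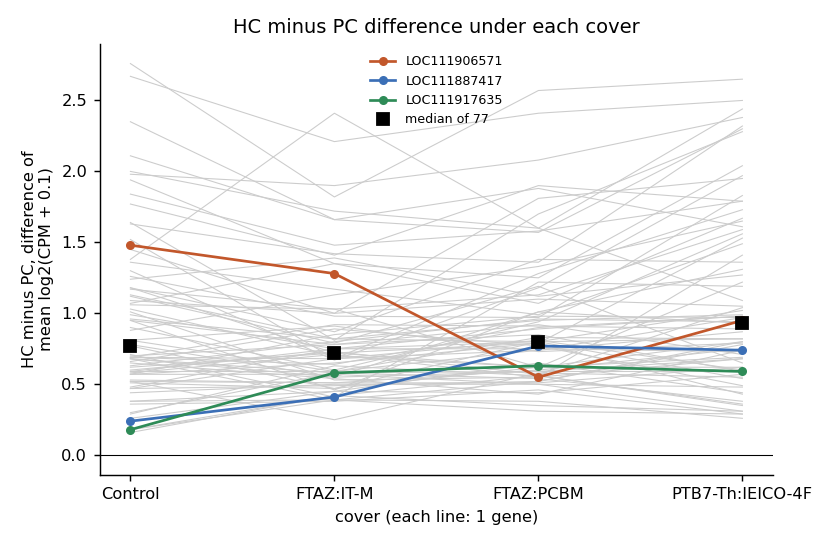
HC minus PC difference of mean log2(CPM + 0.1) under each cover, 1 line for each of the 77 genes and squares for the median (0.77, 0.72, 0.80 and 0.93 from left to right). LOC111906571 drops from 1.48 under Control to 0.55 under FTAZ:PCBM, while LOC111887417 and LOC111917635 start at 0.24 and 0.18 under Control and lie higher under all 3 filters.

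The members also varied together among plants of the same group. Over 2926 pairs of members, the correlation of log2(CPM + 0.1) after removing the group means had a median of 0.33 and a mean of 0.316 over 32 plants, against a mean of 0.0618 over all genes of at least 1 CPM. It was above 0.7 in 159 pairs and ranged from −0.54 (LOC111903583 and LOC111882001) to 0.91 (LOC111899110 and LOC111894590). LOC111886526 and LOC111894582, of the 3 widest members, reached 0.90. The neighbouring loci LOC111894582 and LOC111894590 had 0.53. The members were chosen for the same direction in these same plants. All genes include both directions, whose correlations can cancel in a mean, so the means are not alike. The points of each correlation also share libraries and depth, so the values are a description. In HC PTB7-Th:IEICO-4F, for example, LOC111894582 had 24.1, 47.3, 12.7 and 61.2 CPM, where replicates 1 and 3 were low as they were for LOC111886526.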

How the data were processed

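Values were deposited as raw read counts for each gene. The authors counted with featureCounts 2.0.1 and summed exons by gene, per the file headers, on the RefSeq annotation of Lsat_Salinas_v7, with no strand, multi-mapping or read pair option in the headers. The submitters' processing notes also name FastQC, HISAT2 and DESeq2, without versions. Groups came from the labels. Replicates are separate plants by the labels.

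From these counts, CPM was computed on library totals. Genes passing filterByExpr by group were scaled by TMM and fitted in 1 model of 8 group means with edgeR 4.0.16 (limma 3.58.1, R 4.3.3). The SE printed with a fold change is the absolute value of that fold change divided by the square root of the test's F statistic. Tables used Python 3.11.15 with pandas 2.3.3. The methods were tested on simulated data. The alternatives were leaving out each plant, a replicate block, a gene length offset, only the groups compared, no low-count filter, size factors as in DESeq2, and its Wald test (DESeq2 1.42.0).

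The members, lists and comparisons were chosen with earlier results of these data known. Genes are named by rule: the 10 widest differences, the 5 highest means, the called member with the largest rise and fall in each comparison, and 2 genes on each side of the edge of the rule. Other genes are named outside these rules, and only some of them are marked as named after their values were seen. Planned keyword lists, leaf markers, protein motifs and promoter sequences were not used here, since no product names or sequences were at hand.

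Same-numbered plants of different groups did not deviate together.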

Additional observations from a re-analysis of the deposited data

Results flagged for a closer look

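By the interaction test in edgeR, 3 members were called for an effect of a filter that differed between the experiments. The members were chosen on the HC minus PC separation in these same plants. Of all genes, 1.38% were called wider and 3.23% narrower for FTAZ:PCBM, and 1.32% and 0.674% for PTB7-Th:IEICO-4F. LOC111906571 differed by −0.96 for FTAZ:PCBM. For LOC111887417 the difference was 0.60 with PTB7-Th:IEICO-4F and 0.54 with FTAZ:PCBM. For LOC111917635 it was 0.53 and 0.47 with the same filters. All are on the log2 scale. With the gene length offset, none of the FTAZ:PCBM calls held (edgeR adjusted p = 0.0882, 0.129 and 0.368 in the order above). The calls of LOC111917635 held in 6 of 16 fits without 1 plant for PTB7-Th:IEICO-4F and in 4 of 16 for FTAZ:PCBM.

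In 13 of 184 combinations of a named gene and a group, or of the plant medians and a group, 1 of the 4 plants stood apart from the rest, by a gap that took more of the group's range than Dixon's 95% critical value. Chance gives about 1 in 20, or 9.2 here. LOC111915917 had 4 of them. PC FTAZ:IT-M 4 was high at 3.84 CPM (others 2.52 to 2.57, gap 0.960 of the range) and PC FTAZ:PCBM 2 was high at 2.96 CPM (1.96 to 2.05, gap 0.909). PC PTB7-Th:IEICO-4F 2 was low at 1.1 CPM (1.5 to 1.55, gap 0.896) and HC FTAZ:PCBM 3 was low at 5.18 CPM (7.23 to 7.59, gap 0.850).

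LOC111908128 had 3. PC Control 1 was high at 0.616 CPM (others 0.375 to 0.394, gap 0.920), PC FTAZ:IT-M 3 at 0.684 CPM (0.417 to 0.455, gap 0.859) and HC FTAZ:IT-M 3 at 2.74 CPM (1.49 to 1.54, gap 0.959).

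HC Control 1 was high for LOC111902919 (370 CPM, others 297 to 309, gap 0.834) and for LOC111899110 (268 CPM, others 228 to 234, gap 0.832). HC PTB7-Th:IEICO-4F 2 was high for LOC111909172, at 233 CPM (others 157 to 163, gap 0.927). HC FTAZ:PCBM 3 was low for LOC111906673, at 5 CPM (7.21 to 7.55, gap 0.867). PC FTAZ:IT-M 1 was low for LOC111921209, at 14.4 CPM (20.4 to 21.4, gap 0.846), and PC FTAZ:IT-M 2 for LOC111894582, at 8.4 CPM (9.01 to 9.09, gap 0.882).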

How the results depend on the processing

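The medians of the members' log2 fold changes moved by less than 0.11, the SD of plant medians within groups, in all 60 alternatives tried. They did so too in all 104 fits that each left out 1 plant. Most of these medians were themselves about that size or smaller, so this did not show that their direction held. For FTAZ:PCBM in PC, for example, the median of 0.01 ran from −0.05 to 0.08 without single plants. Counts of called members moved in 11 of 60 alternatives, and the causes were not tested. With DESeq2's Wald test, 24 members were called for PTB7-Th:IEICO-4F in PC, 3 for FTAZ:IT-M in PC and 1 for the FTAZ:IT-M interaction. With only the groups compared, 0 were called for FTAZ:IT-M in PC, 0 for PTB7-Th:IEICO-4F in HC and 0 for its interaction. With the gene length offset, 2 were called for FTAZ:PCBM in PC, 1 for the FTAZ:IT-M interaction and 0 for the FTAZ:PCBM interaction. Without the filter on low counts, 0 were called for PTB7-Th:IEICO-4F in HC.

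The replicate numbers do not pair the plants: same-numbered plants of different groups had correlated deviations over 0.1 in 25 of 112 pairs, with a mean r of 0.011. With the number as a replicate block, 0 members were called for PTB7-Th:IEICO-4F in HC, and no other count moved by over 1.5 times.

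Leaving out single plants gave 0 to 4 called members for FTAZ:IT-M, 3 to 7 for FTAZ:PCBM and 6 to 20 for PTB7-Th:IEICO-4F in PC, and 0 to 2 for PTB7-Th:IEICO-4F in HC. For the interactions the ranges were 0 to 2 with FTAZ:IT-M, 1 to 4 with FTAZ:PCBM and 0 to 4 with PTB7-Th:IEICO-4F. The number of genes passing the rule ran from 77 to 185 without single plants, and was 78 on TMM-scaled CPM, 78 with no minimum level and 64 at a mean of at least 5 CPM. Over single members, 157 of 186 alternatives kept the side of the threshold, 23 lost a call and 6 gained one. Of 288 fits of single members that left out 1 plant, 211 kept the side of the threshold, 75 lost a call and 2 gained one. No direction reversed.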

Other observations

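The mirror rule, in which the lowest PC plant exceeds the highest HC plant, was met by 77 genes as well. Those genes are held back in the opposite directions by their own rule, which limits falls in PC and rises in HC. Under PTB7-Th:IEICO-4F in HC, 9 of them rose and none fell by edgeR's test, beside 2.26% of all genes called higher, and 69 of 77 were above 0 with a median log2 fold change of 0.20. In PC the same filter gave 1 that rose, none that fell and a median of 0.02, beside 0.886% of all genes called higher and 2.46% lower. Against PC Control, 7 rose and none fell under FTAZ:IT-M (all genes 4.03% and 3.23%). Under FTAZ:PCBM 2 rose and 3 fell (all genes 9.31% and 6.4%). With FTAZ:IT-M set against PTB7-Th:IEICO-4F in PC, 19 were higher and 8 lower (all genes 17.3% and 14.8%). No test compared these genes with the 77 members.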
